A study of Mus musculus with 74 samples.

Results

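The Notch receptors Notch1, Notch2 and Notch3, the ligands Jag1 and Dll1, the DNA-binding partner Rbpj and the target genes Hey1, Hey2, Heyl and Hes1 were followed through single cells of the mouse pro-epicardial organ. These 10 genes were chosen by name, and all 10 have a line in the table of 30323 genes. The cells were 74 single cells sorted from dissected organs of C57BL/6 embryos at embryonic day 9.5. All carried Tbx18Cre with the mTmG membrane fluorescent reporter, so the sort kept cells with a history of Tbx18 expression. The series has this 1 group, with no treatment and no control, and addresses how far pro-epicardial cells differ from each other.

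The labels name no embryo, litter or pool, so the 74 cells stand for 1 sample and no test between cells was made. Spreads are given as SD across cells, and shares of cells carry a 95% exact binomial interval (Clopper-Pearson) that covers the counting of cells only. Total estimated counts ranged from 216177 to 2618538 per cell, with a median of 849718. A gene was called detected at 5 counts, equal to 1.91 CPM (counts scaled to a common total per cell) in the deepest cell and 23.1 CPM in the shallowest. Tbx18 itself was detected in 69 cells, Wt1 in 60 and Tcf21 in 63, all markers of the labelled tissue. Of 15 endothelial markers, Cdh5, Tie1, Emcn, Sox18, Cldn5 and Etv2 were detected in 0 cells, while Egfl7 was detected in 67, Pecam1 in 62, Tek in 52 and Kdr in 8. Of the remaining 5 markers, Flt1 was found in 26 cells, Nfatc1 in 14, Esam in 6, Erg in 2 and Sox17 in 1. The part of endothelial transcripts in the results below was not tested.

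Notch signalling passes between touching cells. A ligand of the Delta or Jagged family on one cell binds a Notch receptor on its neighbour, the receptor is cleaved by ADAM proteases and then by gamma-secretase, and its intracellular part joins RBPJ on DNA. The best-known target genes encode Hes and Hey basic helix-loop-helix proteins, which repress transcription. In the mouse epicardium the pathway is known for its part in the smooth muscle differentiation of epicardium-derived cells.

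Hey1 was the most abundant and most often detected of the genes, and Hes1 was next in level, while the receptors and the ligand Jag1 were lower. Full-length libraries give long transcripts more counts, so levels of different genes were compared as mean CPM per kilobase (kb) of annotated exon. Hey1 averaged 55.1 ± 40.3 CPM per kb and Hes1 22.6 ± 32.1 CPM per kb (SD over 74 cells). Jag1 followed at 4.03 ± 7.85, Notch2 at 3.02 ± 3.54 and Notch3 at 2.05 ± 2.50 CPM per kb. Below them came Hey2 at 1.09 ± 3.32, Rbpj at 0.591 ± 0.937, Heyl at 0.283 ± 1.35 and Notch1 at 0.0961 ± 0.238 CPM per kb. Dll1 had no count in any cell.

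Several neighbours in this order did not differ beyond their spread. Hey1 was above Hes1 per kb in 56 cells and below it in 18, and Hes1 was above Jag1 in 53 and below it in 18. Jag1 was above Notch2 in only 29 cells and below it in 41, so its higher mean came from a part of the cells. Notch2 was above Notch3 in 43 cells and below it in 27. Hey2, next in the order, was above Rbpj in 13 cells and below it in 33. Per kb, Hey1 alone exceeded the sum of the 3 receptors in 66 of 74 cells.

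**Figure D1:**
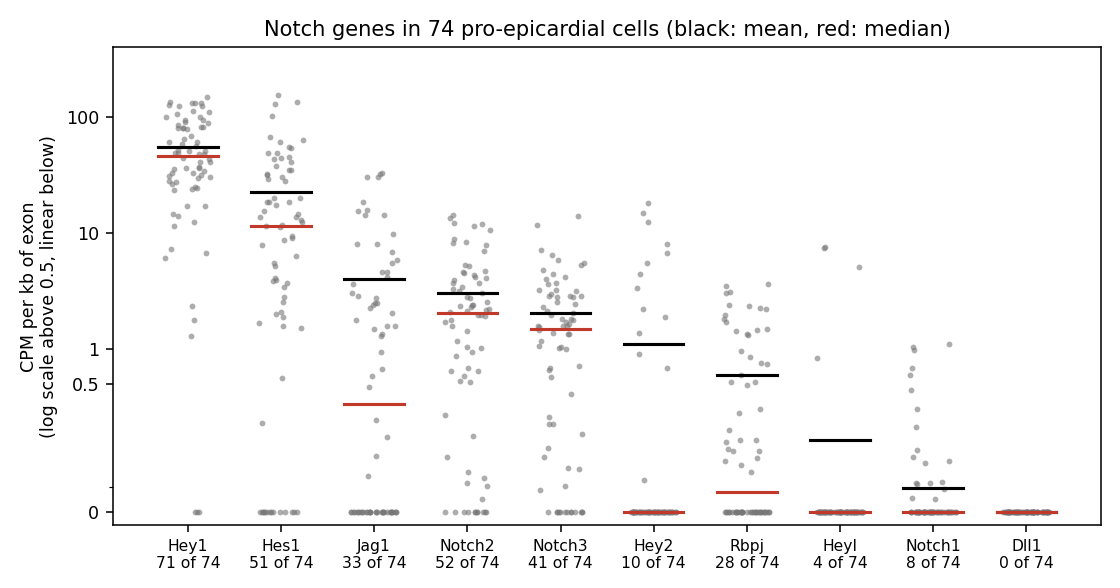
Level of each Notch gene in each of 74 cells, as CPM per kb of exon (vertical axis, logarithmic above 0.5 and linear below), with genes ordered by their mean and the number of cells at 5 or more counts under each name. Points are cells, black bars means and red bars medians. Hey1 is off 0 in 71 cells, while Jag1, with a higher mean than Notch2, has a median below that of Notch2.

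Among the receptors, Notch2 and Notch3 were each found in more than 50% of cells and Notch1 in few. Notch2 (ENSMUSG00000027878, chromosome 3, 98013527 to 98150361, GRCm38) was found in 52 of the 74 cells (70.3%, interval 58.5% to 80.3%). Its level had a median of 21.8 CPM, from 0 to 152.7 CPM, with a mean of 32.6 ± 38.2. Notch3 (ENSMUSG00000038146, chromosome 17, 32120820 to 32166852) reached detection in 41 cells (55.4%, interval 43.4% to 67.0%), with a median of 12.0 CPM and a highest value of 112.5 CPM. Notch3 is best known as the receptor of mural cells. Both receptors were spread over many cells, and the 10 highest cells held 47.9% of all Notch2 and 45.5% of all Notch3 CPM.

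Notch1 (ENSMUSG00000026923, chromosome 2, 26457903 to 26516663), a receptor prominent in endothelium and endocardium, was rare, in 8 cells (10.8%, interval 4.78% to 20.2%). In those 8 cells it lay between 4.70 and 15.7 CPM, and at most 21 counts were seen in any cell. All 8 cells also had Notch2, against 5.62 expected if the genes were detected independently. Their median total of 1349437 counts was above the 817114 of the 66 cells without Notch1, and the part of depth in this overlap was not tested. Notch4, the remaining mammalian receptor, was detected in 7 cells.

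Jag1 was the most often detected of the canonical ligands. Jag1 (ENSMUSG00000027276, chromosome 2, 137081456 to 137116644) was present in 33 cells (44.6%, interval 33.0% to 56.6%). Its median was 2.46 CPM and its highest value 192.4 CPM, and 10 cells held 71.8% of its sum. Dll1 (ENSMUSG00000014773, chromosome 17, 15367354 to 15376872) was found in none of the cells (0 of 74), for which the exact interval ends at 4.86% of cells and the limit of 3 cells in 74 is 4.05%, both for cells at 5 or more counts. Of the other canonical ligands, Dll4 was detected in 0 cells, Jag2 in 2 and Dll3 in 7, with 111.2 CPM of Dll3 in its highest cell. The non-canonical ligand Dlk1, which can inhibit Notch, was detected in 61 cells at 105 ± 119 CPM.

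Receptors and Jag1 were detected together in fewer cells than independence would give. Of the 74 cells, 59 had at least 1 of the 3 receptors and 15 (20.3%, interval 11.8% to 31.2%) had none. Notch2 with Notch3 was the commonest combination, in 28 cells, followed by Notch2 alone in 16, Notch3 alone in 7, all 3 receptors in 6 and Notch1 with Notch2 in 2. A receptor and Jag1 were both detected in 22 cells (29.7%, interval 19.7% to 41.5%), against 26.3 expected under independent detection. As a share of cells, the expected number lies inside that interval. A receptor without Jag1 was found in 37 cells, Jag1 without a receptor in 11 and neither in 4.

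The more receptors a cell had, the less often Jag1 was found. Jag1 was found in 11 of the 15 cells without a receptor, 11 of 23 with 1 receptor, 10 of 30 with 2 and 1 of 6 with all 3. The cells without a receptor were the shallowest, with a median total of 485301 counts against 892815, 896356 and 1114775 in the cells with 1, 2 and 3 receptors. Jag1 itself was higher in shallower cells (Spearman correlation of its level with the total -0.28 over 74 cells), and the part of depth in the opposed pattern was not tested. With counts drawn down to 354002 per cell, a depth 8 cells did not reach, 51 of 66 cells had a receptor and 21 had Jag1. A receptor and Jag1 were then found together in 12 cells, fewer than independence would give. At 1 count in place of 5 the number was 37 of 74, with a receptor in 70 cells and Jag1 in 41. That is near the number independence would give. No canonical ligand among Jag1, Jag2, Dll1, Dll3 and Dll4 was detected in 31 of the 59 cells with a receptor.

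**Figure D2:**
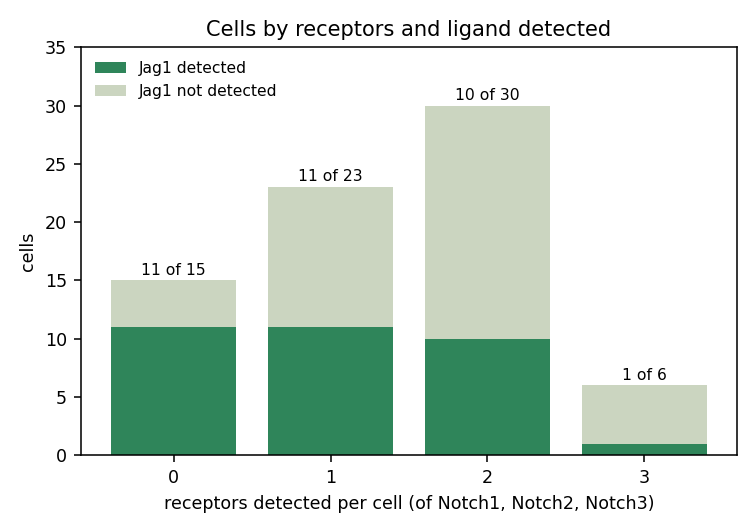
Number of cells (vertical axis) by how many of Notch1, Notch2 and Notch3 were detected at 5 or more counts (horizontal axis), split into cells with Jag1 (dark) and without (light). The labels give the cells with Jag1 of all cells in the bar, from 11 of 15 without a receptor to 1 of 6 with 3.

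Correlations of the levels were weak. The 74 cells differ in depth, and the labels name no embryo, litter or pool. Over them, Jag1 had a Spearman correlation of -0.25 with Notch2 and -0.21 with Notch3, on log2(CPM + 1). Within cluster 1, described below, these were -0.43 and -0.26, and within cluster 2 they were 0.06 and 0.03. Notch2 and Notch3 had 0.23 with each other. Correlations of this size in sparse counts are given as values only.

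Rbpj (ENSMUSG00000039191, chromosome 5, 53466152 to 53657362), the DNA-binding partner of all Notch receptors, was present in 28 cells (37.8%, interval 26.8% to 49.9%). Its median was 1.00 CPM and its highest value 46.6 CPM. Rbpj followed depth more than any other of the genes detected in at least 20% of cells, with a correlation of 0.33 with the total. The cells with Rbpj had a median total of 1272716 counts and those without it 705126. Pseudogenes are listed beside it, Rbpj-ps3 detected in 6 cells and Rbpj-ps1 in 0, so its counts are uncertain to that extent. The annotated spans of Rbpj, Notch1, Notch3 and Dll1 overlap genes on the opposite strand, and those of Notch1 and Notch2 overlap genes on the same strand. No source used here says whether counting used strand, and overlap of exons was not examined. How far reads of those pairs mix is therefore not known. A receptor and Rbpj were detected together in 25 cells, against 22.3 expected.

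Hey1 (ENSMUSG00000040289, chromosome 3, 8663359 to 8667256) was found in 71 of the 74 cells (95.9%, interval 88.6% to 99.2%). Its level ran from 0 to 484.5 CPM with a median of 150.3 CPM and a mean of 179.9 ± 131.7. Hes1 (ENSMUSG00000022528, chromosome 16, 30064384 to 30067796) was found in 51 cells (68.9%, interval 57.1% to 79.2%), from 0 to 318.7 CPM with a median of 23.3 and a mean of 46.1 ± 65.4 CPM. Hes1 is also driven by signals other than Notch, and its level oscillates in many embryonic cells.

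Hey1 differed little between cells with and without each receptor. Its mean was 180.9 ± 139.1 CPM in the 52 cells with Notch2 and 177.4 ± 115.4 CPM in the 22 cells without it, a fold of 1.02. It was 170.3 ± 111.3 CPM in the 41 cells with Notch3 and 191.8 ± 154.4 CPM in the 33 without. The ranges overlapped almost fully, from 0 to 435.7 CPM with Notch3 and from 0 to 484.5 CPM without. Hey1 was detected in 56 of the 59 cells with a receptor and in all 15 cells without one, where it lay between 7.72 and 358.6 CPM with a median of 142.2.

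The 3 cells without Hey1 all had Notch2, and 2 of them had Notch3. Their Hes1 values lay between 16.1 and 110.2 CPM. Over all 74 cells the Spearman correlation of Hey1 was -0.15 with Notch2, -0.03 with Notch3, -0.01 with Notch1 and -0.12 with the summed receptors. Within clusters 1 and 2, described below, Hey1 had -0.43 and 0.20 with the summed receptors. Ranked by correlation with Notch2 over all 74 cells, Hey1 was number 9104 from the top. The ranking held 10402 genes detected in at least 20% of cells.

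Beside Jag1, Hey1 differed by less than its spread. It averaged 196.3 ± 132.2 CPM in the 33 cells with Jag1 and 166.6 ± 131.5 CPM in the 41 cells without. Within the epicardial-like cluster described below it averaged 237.1 ± 140.6 CPM in 18 cells with Jag1 and 248.6 ± 124.8 CPM in 14 without. In the 22 cells with both a receptor and Jag1 it averaged 217.7 ± 138.1 CPM, against 163.9 ± 126.9 CPM in the other 52. The correlation of Hey1 with Jag1 was 0.20, but 0.09 at equal depth and 0.07 within that cluster. Within cluster 1, also described below, the correlation was 0.35. Hey1 there averaged 170.1 ± 123.5 CPM in 9 cells with Jag1 and 129.1 ± 117.1 CPM in 23 without. Over all cells the correlation of Hey1 with Rbpj was 0.09.

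Hes1 was only weakly related to the receptors over all 74 cells, while within clusters it had larger correlations of opposite sign. It averaged 51.8 ± 73.8 CPM in cells with Notch2 and 32.7 ± 37.5 CPM in cells without, yet the medians were 23.3 and 22.8 CPM. The mean difference thus came from high cells with Notch2, up to 318.7 CPM, against a highest value of 137.4 CPM in cells without. With Notch3 the mean of Hes1 was 47.3 ± 59.9 CPM and without it 44.7 ± 72.7 CPM. Hes1 had a correlation of 0.20 with Notch2, 0.19 with Notch3, 0.20 with the summed receptors, -0.12 with Jag1 and -0.09 with Rbpj. Without the cardiomyocyte-like cluster described below, it had 0.09 with Notch2 and -0.24 with Jag1. Its correlation with Jag1 was -0.36 within cluster 1 and -0.09 within cluster 2. With the summed receptors it had 0.44 within cluster 1 and -0.38 within cluster 2. By correlation with Notch2 over all 74 cells, Hes1 was number 859 of 10402 genes from the top.

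Cells were also ordered by summed receptor CPM and cut into 3 groups of near-equal number. From the lowest group to the highest, median receptor sums were 8.65, 34.8 and 75.7 CPM. Median Hey1 was 129.4, 191.5 and 119.4 CPM in the same order, with no steady direction. Median Hes1 was 12.0, 19.0 and 38.0 CPM, and the cells with Hes1 were 15 of 24, 16 of 25 and 20 of 25. Median totals in the 3 groups were 763505, 871272 and 952986 counts, and cluster 1, described below, gave 5, 11 and 16 of their cells, so depth and cluster moved with this order and their part was not tested.

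Hey1 and Hes1 ran against each other. Their Spearman correlation was -0.42 over 74 cells and their Pearson correlation -0.33. Of 10402 genes ranked by correlation with Hey1, Hes1 was number 15 from the bottom. A correlation of -0.3 or lower with Hey1 was reached by 1.68% of all those genes and, of the 5 other Notch genes detected in at least 20% of cells, by Hes1 only. None of the 5 reached 0.3 or higher, which 2.79% of all genes did. With Hes1, Hey1 was likewise the only one at -0.3 or lower, where 0.865% of genes lay, and 0 of 5 lay at 0.3 or higher, where 1.33% did. No other pair among these 6 genes reached 0.3 in size. The shares of all genes at 0.3 or higher and at -0.3 or lower were 1.65% and 1.07% for Notch2 and 1.8% and 0.75% for Notch3. They were 1.51% and 2.18% for Jag1, and 0.981% and 0.606% for Rbpj.

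Cells high in both targets were fewer than cells high in Hey1 only or in Hes1 only. With each gene cut at its median, 25 cells were above it for Hey1 only, 25 for Hes1 only, 12 for both and 12 for neither. The cut at the medians fixes the equal numbers within these pairs. It would also leave most cells high in at most 1 gene if the genes were unrelated. In the 25 cells high in Hey1 only, Hey1 had a median of 279.5 CPM and Hes1 of 3.23 CPM. In the 25 cells high in Hes1 only, Hes1 had a median of 65.5 CPM and Hey1 of 80.7 CPM. Both transcripts were found in 48 cells, and 0 cells had neither. With Hey1 in 71 cells this overlap could hardly vary, so it says nothing on presence. Hey1 averaged 158.5 ± 128.0 CPM in the 51 cells with Hes1 and 227.2 ± 130.1 CPM in the 23 cells without it.

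**Figure D3:**
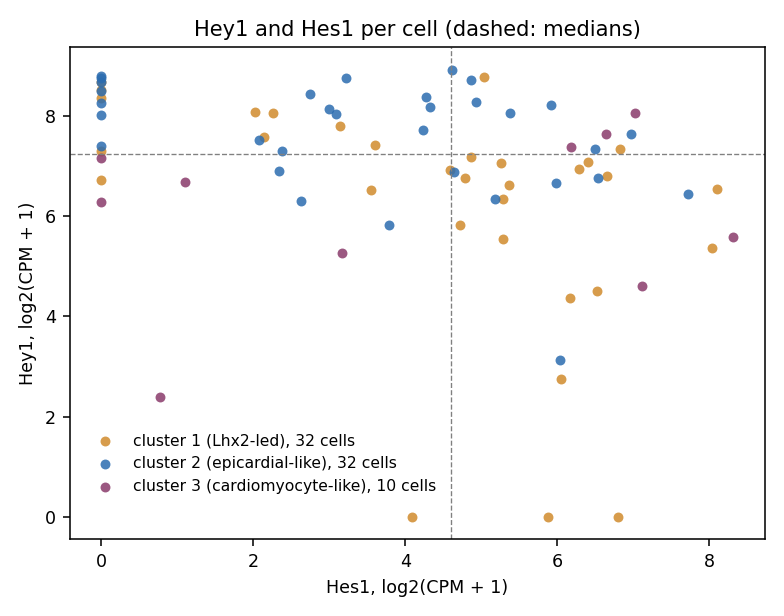
Hey1 (vertical axis) against Hes1 (horizontal axis) in each of 74 cells, both as log2(CPM + 1), coloured by cluster, with dashed lines at the medians. The upper left and lower right parts hold 25 cells each and the remaining parts 12 each.

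Hey2 and Heyl, relatives of Hey1, were rare. Hey2 (ENSMUSG00000019789, chromosome 10, 30832359 to 30842801), a target prominent in ventricular muscle, was present in 10 cells (13.5%, interval 6.68% to 23.5%). In those cells it lay between 8.66 and 83.8 CPM with a median of 28.2. All 10 had Hey1 too, and 7 had Jag1, against 4.46 expected. Heyl (ENSMUSG00000032744, chromosome 4, 123233556 to 123249875) was found in 4 cells, at 38.5, 38.2, 25.97 and 4.28 CPM. All 4 had Notch3, against 2.22 expected, and 2 of them were in the cardiomyocyte-like cluster described below.

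RBPJ binds DNA at a short core, GTGGGAA, and the promoter windows of the members were searched for it on both strands. The RefSeq table of windows (GRCm38.p6, 250 bases before the start to 50 after it where available) held Notch1, Notch2, Notch3, Jag1, Dll1, Rbpj and Hey2, and the core was found in Hey2 alone. Of 32851 promoter windows in the table, 6.38% held it. The E-box CACGTG, a site bound by Hey proteins, was in 0 of the 7 genes and in 7.15% of all windows. The N-box CACNAG, bound by Hes proteins, was in Dll1, Notch1, Notch2 and Notch3 and in 42.5% of all windows. The Hey2 promoter is shown because it carries the RBPJ core in both directions, in capitals, 207 and 4 bases before the transcription start (chr10:30842781-30843033, minus strand, written 5′ to 3′ along the gene).
Hey2 promoter: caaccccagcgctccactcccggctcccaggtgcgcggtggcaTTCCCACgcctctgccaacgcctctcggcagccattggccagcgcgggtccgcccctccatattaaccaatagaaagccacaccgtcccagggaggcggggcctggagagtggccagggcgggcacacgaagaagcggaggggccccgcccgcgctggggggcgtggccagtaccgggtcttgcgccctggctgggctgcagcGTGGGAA
The first match reads on the opposite strand and the second on the gene's own strand, where it runs across the start. A match of letters is a description and no evidence of binding.

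Cells were then grouped without any of the Notch genes, so that none of them shaped the groups in which it was read. Both the 10 genes and 57 further pathway genes were left out of the clustering, which gave 3 clusters of 32, 32 and 10 cells. Cluster 1 was led by Lhx2, Tmem119 and Shisa3 and was left unnamed. Cluster 2 was led by Tm4sf5, Vwa1, Lhx9 and Upk1b and is called epicardial-like, since 17 of 19 epicardial markers were each in 50% or more of those cells. Cluster 3 was led by Coro6, Rgs4, Myo18b, Myh6 and Csrp3 and is called cardiomyocyte-like from 11 of 15 cardiomyocyte markers by the same measure, with Isl1, from the septum transversum list, also leading. Summed endothelial markers ranged from 41.6 to 309 CPM, 43.8 to 371 CPM and 11.9 to 234 CPM in clusters 1, 2 and 3, and their part in the results by cluster was not tested. By median total, cluster 1 was the deepest at 973986 counts per cell, ahead of cluster 3 at 796678 and cluster 2 at 762597.

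Notch2 and Rbpj were lower in the epicardial-like cluster and Rbpj was higher in cluster 1, while Hey1 and Notch3 passed the cutoff below in no cluster. Genes in 10% or more of cells were called where mean CPM in a cluster was 2-fold above or below that in all other cells, which is a cutoff on size without any test. Of 8 such members, 1 was higher in cluster 1 (Rbpj) and 0 lower, 0 were higher in cluster 2 and 2 lower (Notch2 and Rbpj), and 1 was higher in cluster 3 (Hey2) and 0 lower. Over the 11511 genes tested the same rule called 6.78% higher and 5.89% lower in cluster 1, 5.12% higher and 10.5% lower in cluster 2, and 8.29% higher and 17.2% lower in cluster 3. The median log2 fold of the 8 members was 0.30 in cluster 1, -0.66 in cluster 2 and 0.33 in cluster 3, beside 0.06, -0.05 and -0.16 over all genes tested.

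Notch2 averaged 17.8 ± 19.3 CPM in cluster 2 and 43.8 CPM in the remaining cells, a fold of 0.41 that stayed between 0.36 and 0.43 when each cell was left out in turn. Cells with Notch2 made up 26 of 32 in the first cluster, 19 of 32 in the epicardial-like one and 7 of 10 in the cardiomyocyte-like one. In cluster 1 it averaged 44.6 ± 43.8 CPM against 23.4 CPM in the other cells, a fold of 1.91 just under the cutoff, and of 2.29 with 2000 variable genes. Notch3 was likewise at 22.7 ± 20.0 CPM in cluster 1 against 12.0 CPM in the others, a fold of 1.89, or 2.06 with k-means clusters, and was detected in 24, 14 and 3 cells of the clusters. In cluster 3, Notch3 averaged 14.6 ± 34.7 CPM and included 1 cell of 112.5 CPM.

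Rbpj averaged 11.8 ± 14.3 CPM in cluster 1 and 4.33 CPM in the other cells, a fold of 2.72, and 3.79 ± 6.58 CPM in cluster 2 against 10.4 CPM, a fold of 0.36. Cells with Rbpj made up 17 of 32 in cluster 1, 8 of 32 in cluster 2 and 3 of 10 in cluster 3. With 500 variable genes in place of 1000, which left 19 cells in cluster 1, the fold there was 1.45 and no longer a call. Cluster 1 was also the deepest, and the part of depth in the level of Rbpj was not tested. With counts drawn down to equal depth, the folds of Rbpj were 2.44 in cluster 1 and 0.49 in cluster 2.

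Hey1 was detected in all 32 cells of cluster 2, from 7.72 to 484.5 CPM with a mean of 242.1 ± 132.0, against 132.4 CPM in the remaining cells, a fold of 1.83. The median Hey1 level in clusters 1, 2 and 3 was 115.2, 261.8 and 89.4 CPM, and the 3 cells without it were all in cluster 1. Hes1 averaged 31.1 ± 45.3 CPM in cluster 2 and 57.5 CPM in the other cells, a fold of 0.54, with medians of 29.9, 15.3 and 39.7 CPM in clusters 1, 2 and 3. In cluster 3, Hes1 averaged 76.6 ± 101.9 CPM against 41.3 CPM elsewhere, a fold of 1.85. Neither gene passed the cutoff in any cluster, but Hes1 was called higher in cluster 3 with 500 variable genes (fold 2.11) and at equal depth (2.16). The ranges of both genes overlapped across all 3 clusters.

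In cluster 1, Jag1 was found in 9 of 32 cells (28.1%, interval 13.7% to 46.7%), in cluster 2 in 18 of 32 (56.2%, interval 37.7% to 73.6%) and in cluster 3 in 6 of 10 (60.0%, interval 26.2% to 87.8%). Cluster 1 thus held mostly cells with a receptor and no Jag1, 23 of 32, while such cells made up 11 of 32 in the epicardial-like and 3 of 10 in the cardiomyocyte-like cluster. A receptor and Jag1 were both found in 7, 11 and 4 cells of clusters 1, 2 and 3. Jag1 was not called in any cluster, but was lower in cluster 1 with 500 variable genes (fold 0.31) and at equal depth (0.48), and higher in cluster 3 at equal depth (2.57). The call of Hey2 in cluster 3 was unstable: its mean there was 9.32 ± 21.9 CPM against 4.34 CPM elsewhere, from 2 of 10 cells. Without the cell of 68.9 CPM, the fold of Hey2 was 0.62 in place of 2.15.

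**Figure D4:**
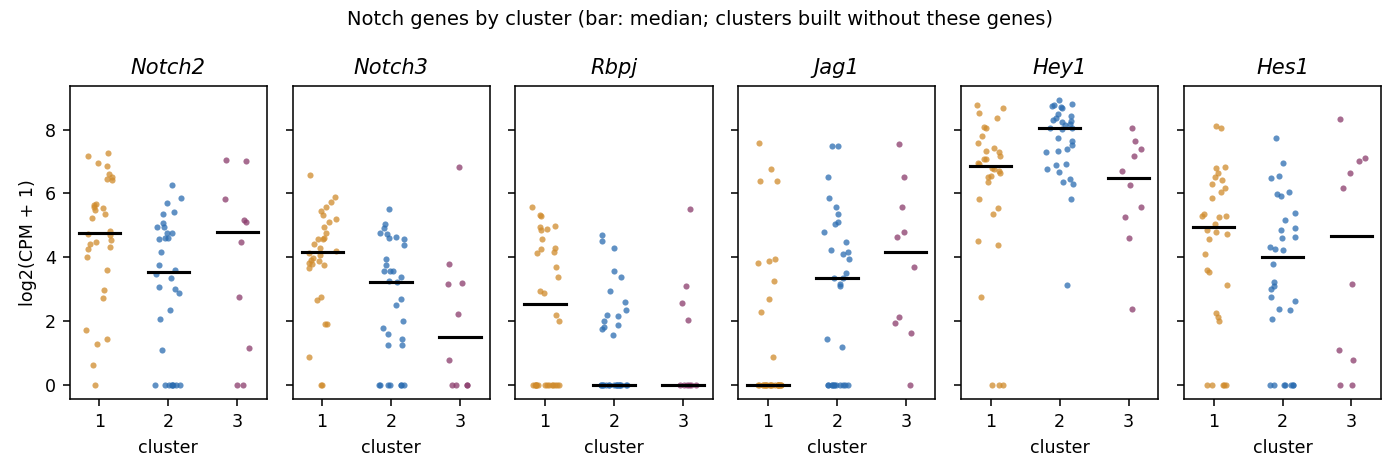
Level of 6 Notch genes as log2(CPM + 1) (vertical axis) in the cells of cluster 1 (Lhx2-led, 32 cells), cluster 2 (epicardial-like, 32 cells) and cluster 3 (cardiomyocyte-like, 10 cells), with bars at the medians. The median of Hey1 is highest in cluster 2, where all 32 cells have it, while the medians of Notch2, Notch3, Rbpj and Hes1 are lower in cluster 2 than in cluster 1.

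Within clusters Notch2 related to the targets in opposite ways. In the 32 cells of cluster 1, Notch2 had a correlation of -0.52 with Hey1 and of 0.45 with Hes1. In the 32 cells of cluster 2 the signs were turned, at 0.29 with Hey1 and -0.46 with Hes1. Among 10401 genes ranked by correlation with Notch2 within cluster 1, Hey1 was number 16 from the bottom and Hes1 number 80 from the top. In cluster 2, among 10400 genes, Hey1 was number 617 from the top and Hes1 number 51 from the bottom.

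The levels showed this in cells with and without Notch2. In cluster 1, Hes1 had a median of 37.9 CPM (0 to 274.2) in the 26 cells with Notch2 and of 7.28 CPM (0 to 31.7) in the 6 cells without. Hey1 had a median of 104.4 CPM (0 to 408.2) in the same 26 cells and of 162.9 CPM (104.1 to 435.7) in the 6. In cluster 2, Hes1 had a median of 6.99 CPM (0 to 210.1) in the 19 cells with Notch2 and of 35.3 CPM (0 to 91.8) in the 13 without. Hey1 had a median of 263.4 CPM (77.7 to 484.5) in the 19 cells and of 161.0 CPM (7.72 to 358.6) in the 13. All these ranges overlapped. Median totals in cluster 2 were 788465 counts with Notch2 and 577334 without, and in cluster 1 973986 and 1018027.

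The opposition of Hey1 and Hes1 had the same sign in both clusters, at -0.57 in cluster 1 and -0.39 in cluster 2. Leaving out each cell in turn kept the Notch2 correlation with Hey1 between -0.58 and -0.47 in cluster 1 and between 0.23 and 0.35 in cluster 2. For Hes1 these ranges were 0.41 to 0.54 and -0.55 to -0.42. The difference between the clusters was not tested, since cells of 1 sample are not replicates. Notch3 showed no such turn of comparable size, with 0.04 and -0.15 for Hey1 and 0.22 and -0.06 for Hes1 in clusters 1 and 2.

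**Figure D5:**
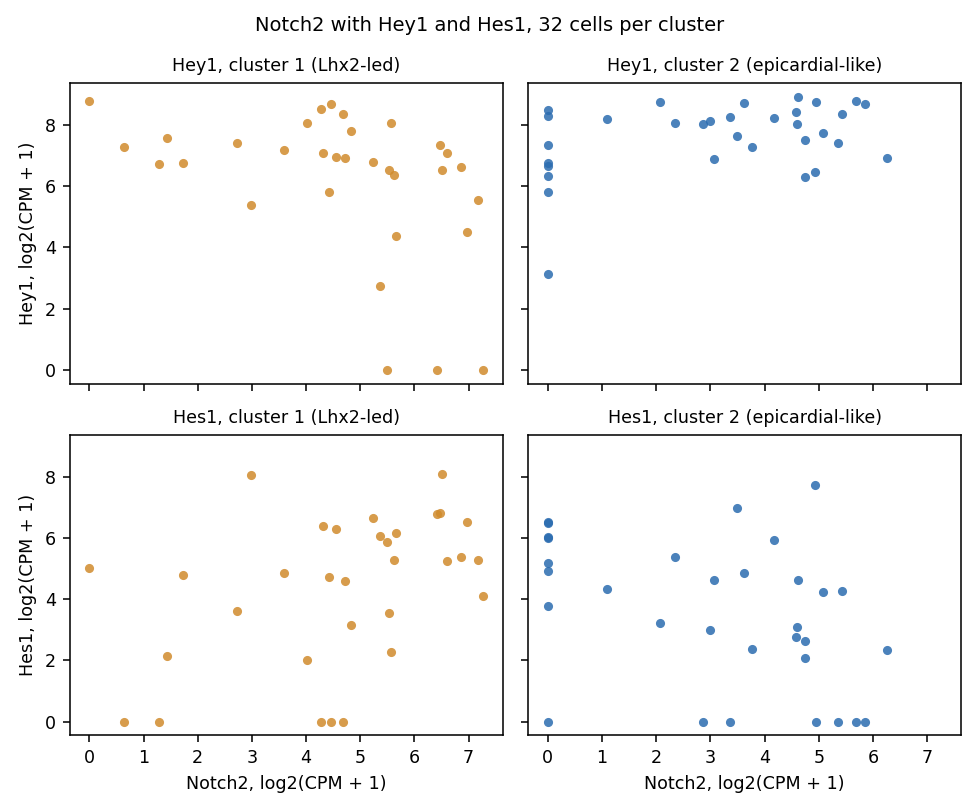
Hey1 (top) and Hes1 (bottom) against Notch2 in the 32 cells of cluster 1 (left) and of cluster 2 (right), all as log2(CPM + 1). In cluster 1 the 3 cells without Hey1 lie above that cluster's median Notch2 level of 26.4 CPM. In cluster 2 Hes1 has a median of 6.99 CPM with Notch2 and 35.3 CPM without.

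The genes most like each Notch gene were named by Spearman correlation over the 74 cells, among 10402 genes. Hey1 was most like Sox9, a transcription factor of chondrogenic and valve progenitors, at 0.60, then Scx, a tendon factor also found in the pro-epicardium, at 0.57, Snx10 at 0.57, Inka2 at 0.56 and Enpp1 at 0.55. Within clusters 1 and 2, Sox9 kept 0.42 and 0.47 with Hey1, and Scx 0.33 and 0.54. Hes1 was most like Usp22, a deubiquitinase of the SAGA complex, at 0.50, then St6gal1, Rad50, Masp1 and Foxp2 at 0.49 to 0.44.

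Notch2 was most like Tbc1d1, at 0.48, then Ttc3, the Wnt receptor gene Fzd1, 3300002I08Rik and Fam160a2, down to 0.43. Notch3 was most like H2afv, at 0.49, then Hmgb3, Pdgfrb, Ivd and Stmn1, down to 0.46. Pdgfrb, 1 of the smooth muscle and pericyte markers, had 0.47 with Notch3 over all cells and 0.43 and 0.31 within clusters 1 and 2. Jag1 was most like Gyg, which primes glycogen synthesis, at 0.60, with 0.51 and 0.65 within clusters 1 and 2. Klhl30, Rcsd1, Uchl1 and Samd4 followed at 0.49 to 0.46. Rbpj was most like Arhgef25, at 0.56, then Mtx3, Ppp1cc, Otulin and Kmt5c, down to 0.43. Hes1 was on none of the lists of the 5 most similar genes of the receptors, and neither was Hey1.

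Of 57 further pathway genes, all in the table, 34 were detected in at least 50% of cells and 2 in none. Of all 30323 genes in the table, 26.2% were in at least 50% of cells, a share that includes genes of other tissues. Of 9 cleavage genes, 7 passed that mark, led by the gamma-secretase subunit Ncstn in 74 cells at 151.6 ± 68.2 CPM and by Psenen in 68. The sheddases Adam10 and Adam17 were each in 65 cells, and Psen2 was the least often detected, in 31. Of 5 genes that glycosylate the receptor, Poglut1 was in 72 cells. Of the fringe genes among them, Rfng was in 57 cells, and Lfng and Mfng were in 1 cell each. Of the ligand endocytosis genes, Mib1 was in 63 cells, Mib2 in 42 and Neurl1a in 16.

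On the nuclear side, all 7 corepressor genes were in at least 50% of cells, led by Hdac1 and Kdm5a in 74, with Tle1 the least often detected in 52. Of 6 genes of the activating complex 2 passed, Snw1 in 74 cells and Ep300 in 64, while the mastermind genes Maml1, Maml2 and Maml3 were in 32, 23 and 19. Of 9 genes of turnover and inhibition, Itch was in 71 cells and Dtx3 in 63, and Dtx1 in 2. Nrarp, a target that restrains Notch, was in 3. Of 12 genes listed as other targets, Id1 was in 71 cells, Acta2 in 67, Hes6 in 64, Hes7 in 2 and Hes5 in 0. Smooth muscle genes on this list, such as Acta2, are shared with other pathways. The part of Notch in the levels of the listed genes was not tested.

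By cluster, 45 of the 57 were detected in at least 10% of cells. Of these, 6 were higher and 2 lower in cluster 1, where 6.78% and 5.89% of all genes tested were. In cluster 2, 1 was higher and 7 lower, beside 5.12% and 10.5% of all genes. In cluster 3, 4 were higher and 6 lower, close to the 8.29% and 17.2% of all genes. The mural receptor gene Pdgfrb was at 40.5 ± 41.6 CPM in cluster 1 and 4.53 CPM in the other cells. Maml3 was at 12.0 ± 20.7 CPM in cluster 1 against 4.30 CPM, Dtx4 at 7.40 ± 16.7 against 1.69 and Snai2, a regulator of epithelial-to-mesenchymal transition, at 76.4 ± 65.6 against 28.3. In cluster 2, Mib2 was at 14.3 ± 18.5 CPM against 32.0 CPM in the other cells and Aph1b at 8.54 ± 12.7 against 17.6. The corepressor gene Fhl1 had a correlation of -0.33 with Hes1. Snai1 was also higher in cluster 1, and Maml3, Dtx4, Pdgfrb and Acta2 lower in cluster 2. In cluster 3 Maml2, Myc and Acta2, the smooth muscle actin gene, were higher, and Psen2, Ccnd1, Snai1, Snai2 and Pdgfrb lower.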

How the data were processed

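Single cells were sequenced from full-length SMART-Seq v4 cDNA with Nextera XT, per the labels. Values deposited by the authors are unscaled estimated counts for each gene, held as whole numbers. The submitters' processing notes list kallisto (no version) and the human build hg38, whereas the identifiers are mouse Ensembl. No source used here states how transcripts were summed. GENCODE M21 (GRCm38) gave symbols, positions and exon lengths for 29857 of 30323 identifiers. The unmatched 466 held 0.357% of counts.

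All 74 cells were kept, with totals from 216177 to 2618538 counts, and no doublet caller was run on singly sorted cells. Counts became CPM and log2(CPM + 1). Clusters used 1000 variable genes above a lowess trend, 10 principal components and Ward's method at 3 clusters. Intervals cover counting error only, and reads without molecular identifiers are not independent molecules.

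The genes and lists were chosen with earlier results of these data known. Named were the 10 genes, the 5 genes of highest correlation with each, and the other pathway genes most and least often detected in a role or past 2-fold. Further genes, such as Adam10, Hes6 and Nrarp, were picked with their values in view. Some pathway genes are not reported here. Alternatives varied the detection count, depth, scaling, pseudocount, correlation, cells, clustering, variable genes, filter and transcript length. The procedure was tested on simulated data. Python (3.11.15) was run with SciPy (1.17.1), numpy (2.4.6), scikit-learn (1.9.0) for clustering, pandas (2.3.3), matplotlib (3.10.9) and statsmodels (0.14.6). R (4.3.3) gave scran (1.30.0) size factors.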

Additional observations from a re-analysis of the deposited data

How the results depend on the processing

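No paired analysis was possible because the labels hold 1 group. Cells with any receptor numbered 70 at 1 count, and cells with a receptor and Jag1 numbered 37 at 1 count and 12 of 66 after thinning. Without the cardiomyocyte-like cluster the correlation of Hey1 was -0.25 with the summed receptors and -0.54 with Hes1. Hes1 then had 0.09 with Notch2 and -0.24 with Jag1. Members higher in cluster 1 numbered 2 with k-means, 0 with 500 and 2 with 2000 variable genes. Members lower in cluster 1 numbered 1 with 500 variable genes and 1 after thinning. Members higher in cluster 3 numbered 0 with k-means, 2 after thinning and 2 without a filter. With each cell left out in turn, an alternative chosen after seeing the data, the members higher numbered 1 to 3 in cluster 1 and 0 to 3 in cluster 3. Those lower numbered 0 to 1, 2 to 4 and 0 to 2 in clusters 1, 2 and 3. The cause of these shifts was not tested. The order of the 10 genes per kb was the same with the longest transcript, while the correlation of Hey1 with Notch3 was -0.03 by rank, 0.01 by Pearson's method and -0.19 without the cardiomyocyte-like cluster. A cell of median depth needs 5.89 CPM for 5 counts, which limits statements on Jag1, Rbpj, Notch1, Hey2 and Heyl. At 1 count in place of 5, Notch3 was in 61 cells, Notch2 in 63 and Hes1 in 60. Their shares of cells thus depend on this cutoff too. Jag1 was then in 41 cells, Rbpj in 37, Notch1 in 19, Hey2 in 14 and Heyl in 4.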

Other observations

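Further pathway genes differed by cluster. Dlk1 averaged 6.06 ± 11.1 CPM in the cardiomyocyte-like cluster and 120.5 CPM in the remaining cells, and 149.3 ± 137.5 CPM in cluster 1 against 71.3 CPM. The protease gene Furin, whose product cleaves newly made Notch receptors, averaged 87.3 ± 102.8 CPM in the cardiomyocyte-like cluster and 34.3 CPM elsewhere. The cyclin gene Ccnd1 averaged 166.9 ± 138.2 CPM in the epicardial-like cluster and 42.8 CPM in the remaining cells. Myc averaged 32.0 ± 55.9 CPM in cluster 1 and 157.7 CPM in the others. Of these 4 genes, Ccnd1 had the correlation largest in size with Hey1 or Hes1 over 74 cells, 0.23 with Hey1. The highest Hes1 value, 318.7 CPM, and a Hey2 value of 20.2 CPM were in the same cell of the cardiomyocyte-like cluster.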
